A study of Mus musculus with 12 samples.

Results

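Retinal progenitors are the dividing cells of the embryonic retina, and the 9 genes described here are the ones commonly used to recognise them: Pax6, Rax, Six6, Lhx2, Sox2, Sox9, Nr2e1, Ccnd1 and Fgf15. They were chosen by name, with earlier results of these data known. All 9 of 9 were among the 19954 genes listed for the 12 libraries and passed the filter on low counts in each comparison. The question asked here was whether their RNA differed between Tbr2 mutant and wildtype retinas, and at which level each stood in wildtype retina. RNA was sequenced from C57BL/6 mouse retinas at E15.5, about the time when ganglion cells are being born, and each library was made from 12 pooled retinas. The groups were mutant males, wildtype males, mutant females and wildtype females, with 3 libraries each, numbered 4, 5 and 6. Mutants were Six3-Cre:Tbr2f/f, with floxed Tbr2 alleles and a Cre recombinase driven from Six3 regulatory sequence, which is active in the embryonic eye field and retina. Wildtype retinas are labelled by genotype alone, and whether any of them carried Cre is not given in the sources used here. Tbr2 is the T-box transcription factor gene listed as Eomes. Retinas came from several litters, so a p-value reflects variation from pool to pool rather than from embryo to embryo.

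A progenitor divides in the outer retina, and its daughters either re-enter the cycle or leave it and become neurons. Homeobox factors (Rax, Pax6, Six6, Lhx2) set up the eye field and keep the cells competent to make every retinal cell type, and the HMG-box factors Sox2 and Sox9 act alongside them. Nr2e1, also called Tlx, is an orphan nuclear receptor that keeps progenitors cycling, Ccnd1 encodes the D-type cyclin that carries them past G1, and Fgf15 encodes a fibroblast growth factor that they secrete. Tbr2 is made by newborn ganglion cells and other postmitotic neurons, downstream of the progenitor stage. Some members stay on in cells that have left the cycle: ganglion and amacrine cells retain Pax6, and Müller glia keep Sox9 and Lhx2.

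Upstream sequence of 4 members is shown. Pax6, Six6 and Sox2 are 3 members that were correlated in pairs over the libraries and had a window in the RefSeq table, and Lhx2 is the member with an isolated high library. These correlations did not pass within a subset of 7 libraries described below. Pax6 with Six6 had r = 0.38 after a correction for GC content. A link between the windows and the correlations was not tested. Each line gives the 250 bases before the first start listed by RefSeq (GRCm38.p6, plus strand, 5′ to 3′), and capitals mark CCAAT or its reverse complement ATTGG.
Pax6, chr2:105668646-105668895: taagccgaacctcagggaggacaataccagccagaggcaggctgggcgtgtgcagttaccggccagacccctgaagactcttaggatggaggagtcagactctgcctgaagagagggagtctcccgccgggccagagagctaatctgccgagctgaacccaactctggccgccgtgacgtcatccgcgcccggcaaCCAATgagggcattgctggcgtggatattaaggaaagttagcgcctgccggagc
Six6, chr12:72939632-72939881: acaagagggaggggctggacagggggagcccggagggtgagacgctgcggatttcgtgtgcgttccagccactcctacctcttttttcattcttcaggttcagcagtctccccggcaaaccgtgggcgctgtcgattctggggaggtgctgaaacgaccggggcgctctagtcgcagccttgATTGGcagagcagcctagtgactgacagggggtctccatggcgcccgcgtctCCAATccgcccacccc
Sox2, chr3:34649745-34649994: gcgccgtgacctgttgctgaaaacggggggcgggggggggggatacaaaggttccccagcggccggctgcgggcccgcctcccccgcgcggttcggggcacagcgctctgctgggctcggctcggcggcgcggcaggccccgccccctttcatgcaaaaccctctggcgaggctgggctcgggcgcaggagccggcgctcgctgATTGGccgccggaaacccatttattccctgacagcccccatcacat
Lhx2, chr2:38339031-38339280: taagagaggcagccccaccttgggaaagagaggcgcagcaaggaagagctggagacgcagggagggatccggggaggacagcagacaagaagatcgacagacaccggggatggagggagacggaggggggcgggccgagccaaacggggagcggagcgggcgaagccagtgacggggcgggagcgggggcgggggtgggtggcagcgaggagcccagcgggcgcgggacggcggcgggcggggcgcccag
CCAAT, read on both strands, occurred 1 time in the Pax6 window, 2 times in the Six6 window, 1 time in the Sox2 window and 0 times in the Lhx2 window. It occurred 0 times in the windows not shown, which were a second window each of Pax6 and Lhx2 and the window of Nr2e1. Of 32851 windows of this length in the RefSeq table, 33.8% held it. The T-box core AGGTGT (both strands) and the homeodomain core TAATTA (which is its own reverse complement) were in 0 of the 7 windows found for 5 members, which were Pax6, Lhx2, Sox2, Six6 and Nr2e1. Of all windows, 11.8% held AGGTGT and 4.84% held TAATTA. The windows shown had a GC content of 60.8% (Pax6), 62.8% (Six6), 72% (Sox2) and 72.8% (Lhx2), against a median of 52.4% over all windows. Those not shown had 47.6% (second window of Pax6), 68.4% (second window of Lhx2) and 58% (Nr2e1).

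Total counts ran from 18514607 in mutant male 6 to 27072825 in wildtype female 4, and the members had between 1784 counts (Sox9) and 79369 counts (Ccnd1) in a library. Eomes stood at 9.62 to 27.4 CPM (counts scaled to an equal library total) in the 6 mutant libraries, against 53.4 to 76.1 CPM in the 6 wildtype libraries, with no overlap. Some Eomes RNA thus remained in each mutant library. Mutant males had 21.2 to 27.4 CPM and mutant females 9.62 to 16.1 CPM, against means of 66.1 CPM in wildtype males and 57.3 CPM in wildtype females. The interaction of genotype and sex, tested below, called no gene. The log2 fold change of Eomes over both sexes was -1.76 (adjusted p = 0.000484, edgeR quasi-likelihood test). A pair of library differences run across the groups and touch the members. The mitochondrial transcript mt-Nd6 was above 100 CPM in 5 libraries (mutant male 4, wildtype male 5, mutant female 4, wildtype females 4 and 6) and lower in the other 7. The summed CPM of 9 listed lens markers was 4.97 to 1868 in mutant libraries and 9.49 to 754.7 in wildtype libraries.

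The members lay on 7 chromosomes of mm10. Pax6 (ENSMUSG00000027168) was listed at chr2:105668900-105697364 on the plus strand and Lhx2 (ENSMUSG00000000247) at chr2:38339281-38369733 on the plus strand. Six6 (ENSMUSG00000021099) was listed at chr12:72939892-72944899, Sox2 (ENSMUSG00000074637) at chr3:34650405-34652461 and Sox9 (ENSMUSG00000000567) at chr11:112782224-112787760, all on the plus strand. Rax (ENSMUSG00000024518) was at chr18:65934639-65939089 and Nr2e1 (ENSMUSG00000019803) at chr10:42561963-42583632, both on the minus strand. Fgf15 (ENSMUSG00000031073, chr7:144896532-144900953, plus strand) and Ccnd1 (ENSMUSG00000070348, chr7:144929931-144939869, minus strand) are neighbours whose 3′ ends face each other, 28977 bases apart, and 0 listed genes lay wholly between them. All 9 are protein-coding. Another listed gene shared bases with 7 of them, and which strand the reads were counted on is not given, so reads of an overlap cannot be assigned. The partners were low beside the members: Sox2ot, a noncoding transcript on the same strand that spans all 2057 bases of Sox2, averaged 13.5 CPM against 233.8 CPM for Sox2, and Oraov1, which shares 818 bases with Ccnd1, averaged 37.7 CPM against 3017 CPM for Ccnd1. Nr2e1 and Sox9 had no such partner.

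All members were well expressed in wildtype retina. In the deposited FPKM values, which divide by gene length and so allow genes to be compared, Ccnd1 led with 779.5 ± 32.5 FPKM (SD, n = 6) and ranked 52 of 19954 genes. Fgf15 followed with 396.7 ± 16.4 FPKM at rank 117 and Pax6 with 139.8 ± 7.0 FPKM at rank 362. The secreted factor thus stood above every transcription factor of the group. Next came Sox2 at 110.9 ± 9.65, Lhx2 at 96.6 ± 1.59 and Rax at 90.3 ± 10.2 FPKM. Six6 (56.9 ± 5.66 FPKM) and Nr2e1 (55.8 ± 2.46 FPKM) lay close together, and Sox9 was lowest at 24.2 ± 2.08 FPKM, at rank 3297.

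The order was compared between neighbours within each wildtype library with an exact two-sided sign-flip test. It was taken from the means of the same 6 libraries, so the test describes how steady the order was from library to library. A bias of a gene that recurs in every library cannot be seen this way. In 5 of the 8 neighbouring pairs the upper gene was higher in 6 of 6 libraries: Ccnd1 over Fgf15, Fgf15 over Pax6, Pax6 over Sox2, Rax over Six6 and Nr2e1 over Sox9. Their exact p was 0.0312, the smallest that 6 libraries can give, and 0.05 after adjustment over the 8 pairs, which is not under the threshold of 0.05. The steps were a mean log2 difference of 0.97 ± 0.08 for Ccnd1 over Fgf15, 1.5 ± 0.05 for Fgf15 over Pax6 and 1.21 ± 0.18 for Nr2e1 over Sox9 (SD, n = 6). Sox2 exceeded Lhx2 in 5 of 6 libraries (exact p = 0.0625), and Lhx2 exceeded Rax in 5 of 6 (exact p = 0.125). Six6 and Nr2e1 did not differ beyond their spread, with Six6 higher in 3 of 6 libraries (exact p = 0.781). In mutant retina Nr2e1 (59.2 ± 4.35 FPKM) lay above Six6 (53.3 ± 6.98 FPKM), and the other members kept the order seen in wildtype retina: Ccnd1 833.9, Fgf15 385.3, Pax6 139.8, Sox2 116.3, Lhx2 103.1, Rax 90.3 and Sox9 25.5 mean FPKM.

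**Figure D1:**
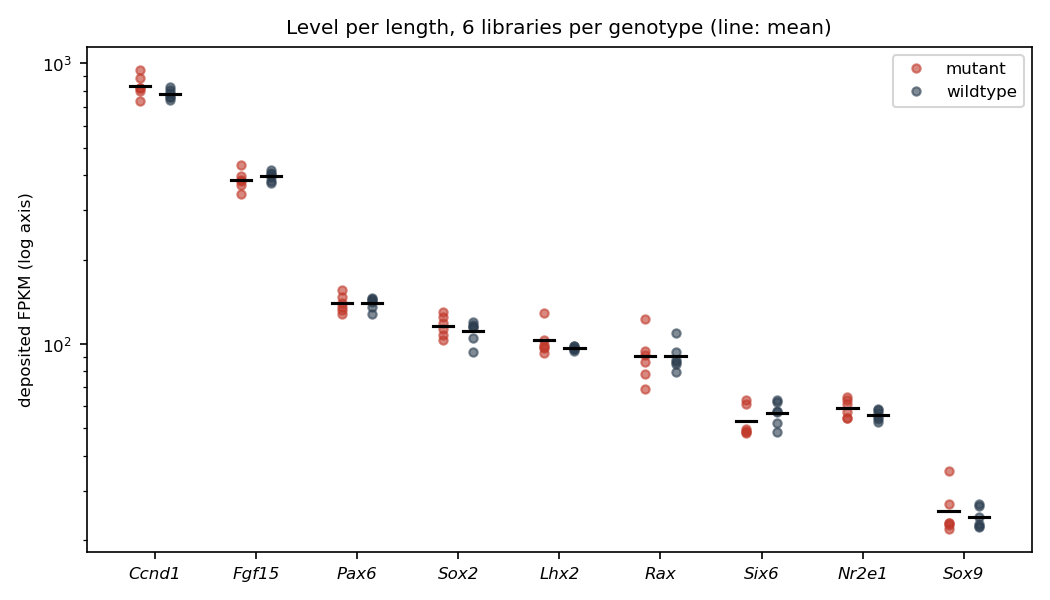
Deposited FPKM of the 9 members (log axis) in the 6 mutant libraries, left, and the 6 wildtype libraries, right, with a line at each mean. In wildtype retina the means run from 779.5 FPKM for Ccnd1 to 24.2 FPKM for Sox9, and the points of the genotypes overlap for each gene.

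None of the progenitor genes passed the test of mutants against wildtypes. With both sexes together, 0 of the 9 members were called at an adjusted p under 0.05 (edgeR quasi-likelihood test), against 0.0259% of the 15467 genes tested (4 genes). Of the members, 5 had a fold change above 0 and 4 below, with log2 fold changes between -0.10 and 0.09 and a median of 0.06, beside a median of -0.00806 over all genes tested. Unadjusted p-values were 0.143 at the lowest, and 451 of all genes tested had one under 0.05. The 95% intervals of the log2 fold changes bound what could have gone unseen. In this fit the bound farthest from 0 was -0.32, for Six6, which is 1.25-fold. The fits with fewer libraries or more terms were less tight. Their farthest bounds were 1.53-fold in males (Sox9), 1.34-fold in females (Six6) and 1.65-fold for the interaction of genotype and sex (Sox9). In bulk retina, fewer progenitors and less RNA per progenitor cannot be told apart.

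**Figure D2:**
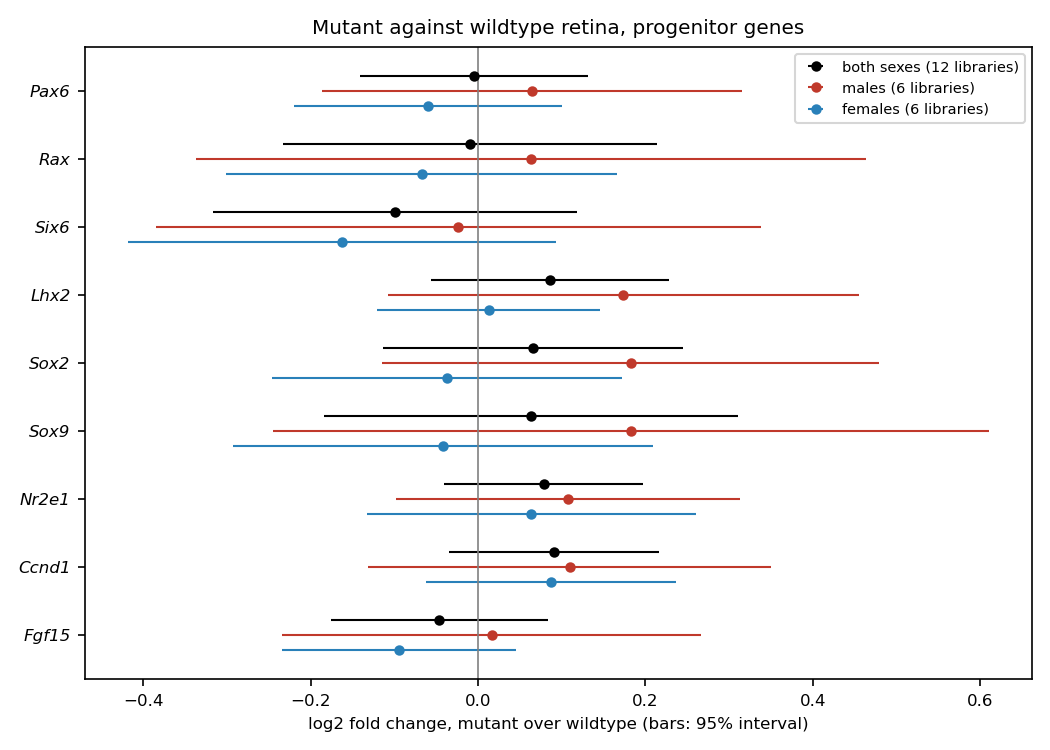
Log2 fold change of each member, mutant over wildtype, with its 95% interval, from the fit of both sexes (black), males (red) and females (blue). Every interval includes 0, and the largest estimates are those of Sox9 and Sox2 in males, both 0.18.

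Among the homeobox genes, Rax, which is needed for an eye to form in the mouse, had 130.3, 157.0 and 205.2 CPM in mutant males, against 147.0, 144.2 and 182.1 CPM in wildtype males. In mutant females it had 114.9, 144.0 and 153.1 CPM, against 133.1, 155.9 and 142.0 CPM in wildtype females. The groups overlapped in both sexes, and the highest and the lowest library were both mutant. The log2 fold change was -0.01 ± 0.10 (SE, 12 libraries, adjusted p = 0.988, edgeR).

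Pax6, a paired-box and homeobox factor that keeps progenitors multipotent, stood at 687.9, 621.3 and 566.9 CPM in mutant males, against 566.3, 634.4 and 598.3 CPM in wildtype males. Mutant females had 653.5, 585.0 and 599.6 CPM, against 627.4, 641.3 and 647.0 CPM in wildtype females. The genotype means were 619.0 ± 45.1 CPM in mutants and 619.1 ± 31.0 CPM in wildtypes (SD, n = 6 each). The 95% interval of its log2 fold change was -0.14 to 0.13.

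Six6, a homeobox repressor that keeps progenitors dividing, had the largest negative difference. It had 254.3, 192.5 and 196.7 CPM in mutant males, against 210.1, 250.2 and 195.0 CPM in wildtype males. Mutant females had 244.5, 198.9 and 194.7 CPM, against 253.6, 228.7 and 231.8 CPM in wildtype females. In both mutant groups library 4 was high and libraries 5 and 6 were low, and the range of the wildtypes covered most of the same span. The log2 fold change was -0.10 ± 0.10 (SE, adjusted p = 0.918, edgeR). With 1 library left out it lay between -0.17 (without mutant male 4, adjusted p = 0.439) and -0.05 (without wildtype male 5).

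Lhx2, a LIM-homeobox factor needed for the optic vesicle to become a cup, was the steadiest member in wildtype retina, with 267.98 to 279.98 CPM over 6 libraries and a coefficient of variation of 1.65%. It had 274.7, 294.0 and 365.5 CPM in mutant males, against 280.0, 271.8 and 278.9 CPM in wildtype males. Mutant females had 264.0, 277.5 and 282.1 CPM, against 268.0, 274.8 and 272.7 CPM in wildtype females. The value of mutant male 6 lay far above the other 11 libraries. The log2 fold change was 0.09 ± 0.07 (SE, adjusted p = 0.918, edgeR), and without that library it was 0.02.

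Sox2, the HMG-box factor that gives progenitors the competence to make neurons, had a lowest, median and highest value of 212.2, 239.0 and 267.8 CPM in the 6 mutant libraries, against 193.4, 237.2 and 245.9 CPM in the 6 wildtype libraries. The ranges overlapped over most of their length, and the log2 fold change was 0.07 ± 0.08 (SE, adjusted p = 0.918, edgeR). Sox9, which marks progenitors and later Müller glia, had 95.2, 95.2 and 145.9 CPM in mutant males, against 92.7, 109.7 and 94.3 CPM in wildtype males. Mutant females had 93.7, 111.4 and 90.3 CPM, against 99.9, 92.3 and 111.5 CPM in wildtype females. As with Lhx2, mutant male 6 stood apart from the rest. The Sox9 log2 fold change was 0.06 ± 0.11 (SE, adjusted p = 0.932, edgeR) with that library and -0.05 without it.

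Nr2e1 had 179.1, 194.6 and 211.95 CPM as its lowest, median and highest value in mutant libraries, against 172.5, 183.5 and 192.5 CPM in wildtype libraries. The upper values were mutant, but the ranges overlapped, and the log2 fold change was 0.08 ± 0.05 (SE, adjusted p = 0.918, edgeR). Ccnd1, the G1 cyclin, had 2758, 3056 and 3544 CPM in mutant males, against 2848, 2836 and 3016 CPM in wildtype males. Mutant females had 3055, 2989 and 3312 CPM, against 2932, 2771 and 3093 CPM in wildtype females. Both the lowest and the highest library were mutant males. Ccnd1 had the smallest unadjusted p of the group, with a log2 fold change of 0.09 ± 0.06 (SE, unadjusted p = 0.143, adjusted p = 0.918, edgeR), and without mutant male 6 it was 0.04.

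Fgf15 had 785.7, 690.8 and 621.6 CPM in mutant males, against 678.9, 689.6 and 713.0 CPM in wildtype males. Mutant females had 720.7, 667.7 and 695.8 CPM, against 732.7, 756.2 and 736.4 CPM in wildtype females. In males the mutants lay on both sides of the wildtypes, and in females all mutants lay below all wildtypes. Fgf15 in females was the 1 case among the 9 members and both sexes without overlap of the CPM values, and 3.61% of genes of at least 1 CPM had mutant females below wildtype females in the same way. In either direction, 7.77% of these genes had no overlap in females and 4.88% in males. After TMM scaling the female libraries overlapped, since mutant female 4 stood 0.08 above the Fgf15 mean on the log2 scale and wildtype female 5 stood 0.07 above it. The log2 fold change in females was -0.09 ± 0.06 (SE, 6 libraries, adjusted p = 0.986, edgeR).

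**Figure D3:**
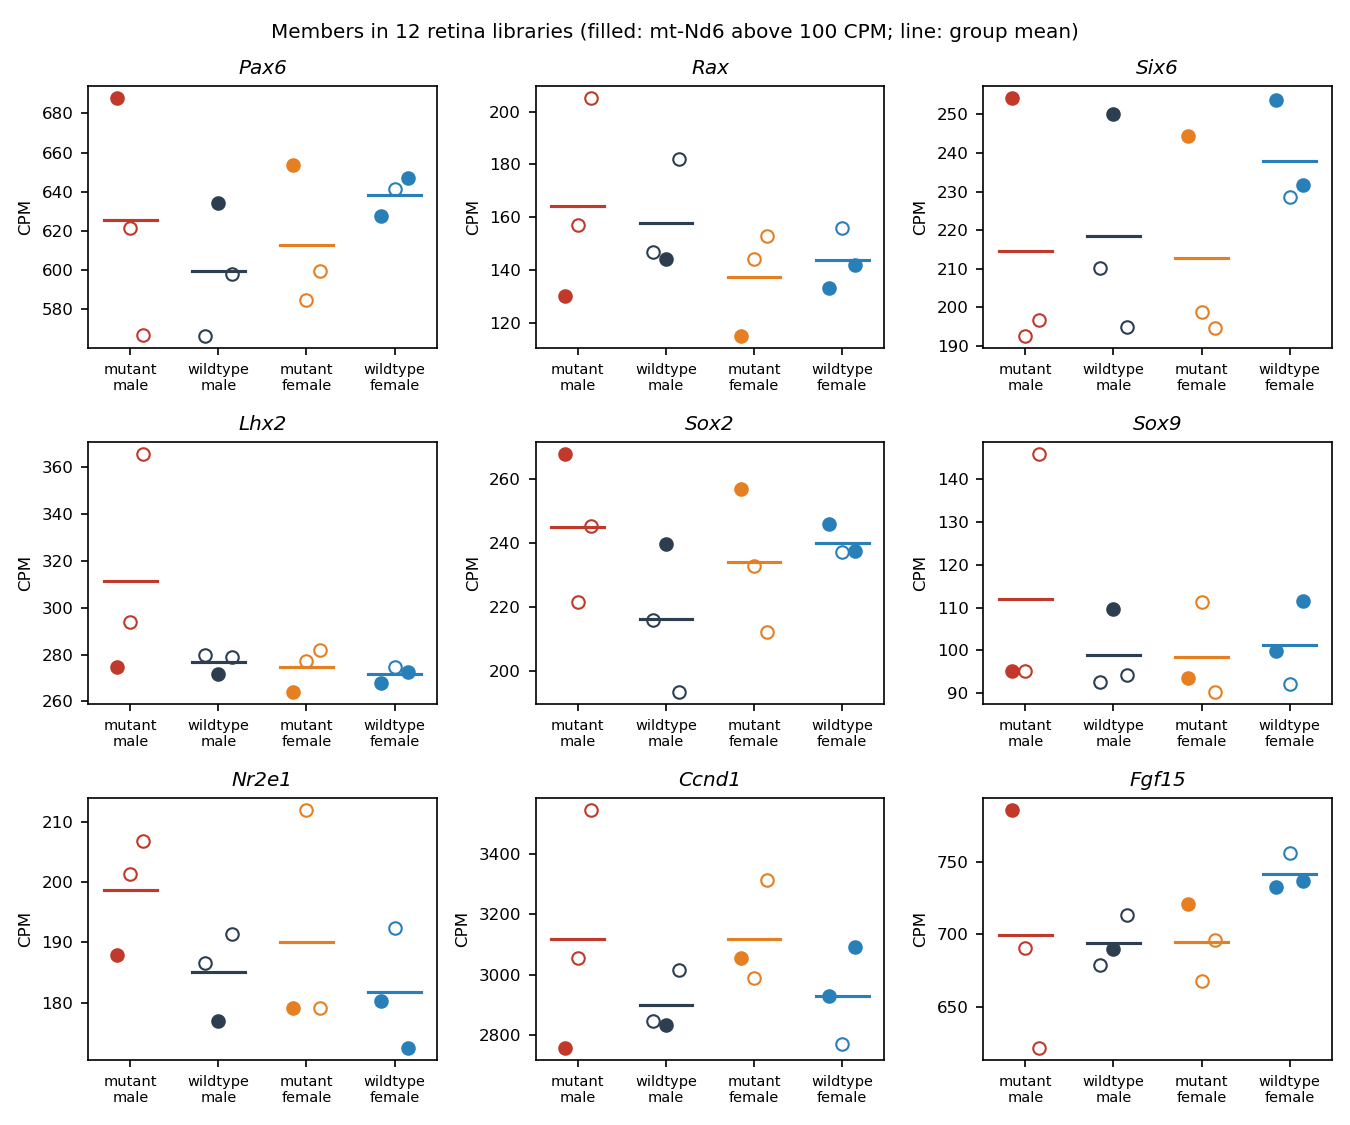
CPM of each member in each library, with groups in the order mutant male, wildtype male, mutant female, wildtype female and libraries 4, 5 and 6 from left to right within a group. Lines are group means and filled points are the 5 libraries with mt-Nd6 above 100 CPM, and each vertical axis has its own range and does not start at 0. Lhx2 and Sox9 of mutant male 6, at 365.5 and 145.9 CPM, lie above all other points of their panels.

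In males 0 of 9 members were called, against 0.0% of 14945 genes. No gene passed there, although 210 had an unadjusted p under 0.05, and DESeq2 called 6 genes and limma voom 0. The male estimates were above 0 for 8 members, led by Sox9 (0.18 ± 0.19), Sox2 (0.18 ± 0.13) and Lhx2 (0.17 ± 0.12, log2 ± SE), with Six6 at -0.02 ± 0.16. Without mutant male 6 the male values became -0.05 for Sox9, 0.04 for Lhx2 and -0.13 for Rax, against 0.06 for Rax with it.

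In females 0 of 9 members were called, against 0.00669% of 14956 genes, which is Eomes alone. The estimates were below 0 for 6 members, with the largest for Six6 (-0.16 ± 0.11) and Fgf15, and above 0 for Ccnd1 (0.09 ± 0.07), Nr2e1 (0.06 ± 0.09) and Lhx2 (0.01 ± 0.06, log2 ± SE). Without mutant female 4 the Six6 difference in females was -0.30 (unadjusted p = 0.00372, adjusted p = 0.154, edgeR). In that fit 2175 of 15188 genes and 3 of 9 members had an unadjusted p under 0.05, against 394 of 14956 genes and 0 members with all female libraries. It left no mutant female in the high mt-Nd6 set, beside wildtype females 4 and 6, so genotype and set cannot be fully told apart there. The labels give no pairing, and the library numbers were read as pairs in females from these same libraries alone. The values by pair or with the number as a block are therefore a description. Within the same-numbered female pairs Six6 and Fgf15 had a lower CPM in the mutant in 3 of 3 pairs and Ccnd1 a higher one in 3 of 3. For Fgf15 any pairing of the female libraries gives this, since all mutants lay below all wildtypes. How many of all genes do so was not counted, so these counts have no background and are no result about the members. With the number as a block 2 genes were called and 0 members. The genes with an unadjusted p under 0.05 were then 849 of 14956, against 394 without the block. Six6 was the 1 member among them (log2 fold change -0.17, unadjusted p = 0.0424, adjusted p = 0.845, edgeR). Ccnd1, Nr2e1 and Lhx2 were the members estimated above 0 in each sex, and none of them passed a test in either. Without mutant female 5 the Nr2e1 value in females was -0.02.

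The difference between the sexes was tested as an interaction. It called 0 of 9 members, against 0.0% of 15467 genes, and 267 genes had an unadjusted p under 0.05 while DESeq2 and limma voom each called 0. The interaction was negative for all 9 members, which means a lower mutant difference in females than in males, with log2 values from -0.22 for Sox9 and -0.21 for Sox2 to -0.01 for Ccnd1. The members share the same 12 libraries, so their common sign is not 9 separate observations. Without mutant male 6 the sign turned for Sox9 (0.02), Rax (0.07) and Ccnd1 (0.09).

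Baseline levels were compared between the sexes, wildtype females against wildtype males. Of the members 0 of 9 were called, against 0.00647% of 15467 genes. Sox2 averaged 240.1 ± 5.04 CPM in wildtype females and 216.2 ± 23.1 CPM in wildtype males, and Six6 averaged 238.0 ± 13.6 CPM in wildtype females and 218.4 ± 28.5 CPM in wildtype males (SD, n = 3 each). Fgf15 averaged 741.8 ± 12.7 CPM in wildtype females and 693.8 ± 17.4 CPM in wildtype males, Pax6 638.6 ± 10.1 CPM in females and 599.7 ± 34.0 CPM in males. Rax went the other way, with 143.7 ± 11 CPM in wildtype females and 157.7 ± 21.1 CPM in wildtype males. The log2 differences, female over male, were 0.17 for Sox2, 0.15 for Six6, 0.12 for Fgf15, 0.11 for Pax6 and -0.11 for Rax, all with an adjusted p that rounds to 1 (edgeR). Wildtype females held 2 libraries of the high mt-Nd6 set and wildtype males 1, and with a term for that set the Six6 difference was 0.05 and the Rax difference -0.02.

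Six6 and Lhx2 were the members whose CPM values did not overlap between the mt-Nd6 sets. Six6 had 231.8, 250.2 and 254.3 CPM as lowest, median and highest value in the 5 libraries of the high set, against 192.5, 196.7 and 228.7 CPM in the 7 of the low set. Lhx2 had 264.0, 271.8 and 274.7 CPM in the high set, against 274.8, 280.0 and 365.5 CPM in the low set, so that the sets met with a gap of less than 1 CPM, and after TMM scaling they overlapped. The other 7 members overlapped between the sets. Of all genes of at least 1 CPM, 17.5% did not overlap between the sets, so the 2 of 9 members are near that background.

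The same sets differed in how levels followed the GC content of transcripts. Over 13641 genes the Spearman rho between GC content and the deviation of a library from the mean was -0.63 to -0.49 in the high set and -0.02 to 0.70 in the low set, with mutant male 6 at 0.70. Six6 had the lowest transcript GC content of the members at 43.6% and Lhx2 the highest at 58.5%, with the other 7 between 49.3% and 52.0%. With GC-corrected offsets the fold changes of mutants over wildtypes still gave 0 members called. The part of GC content in the level of any single member was not tested.

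**Figure D4:**
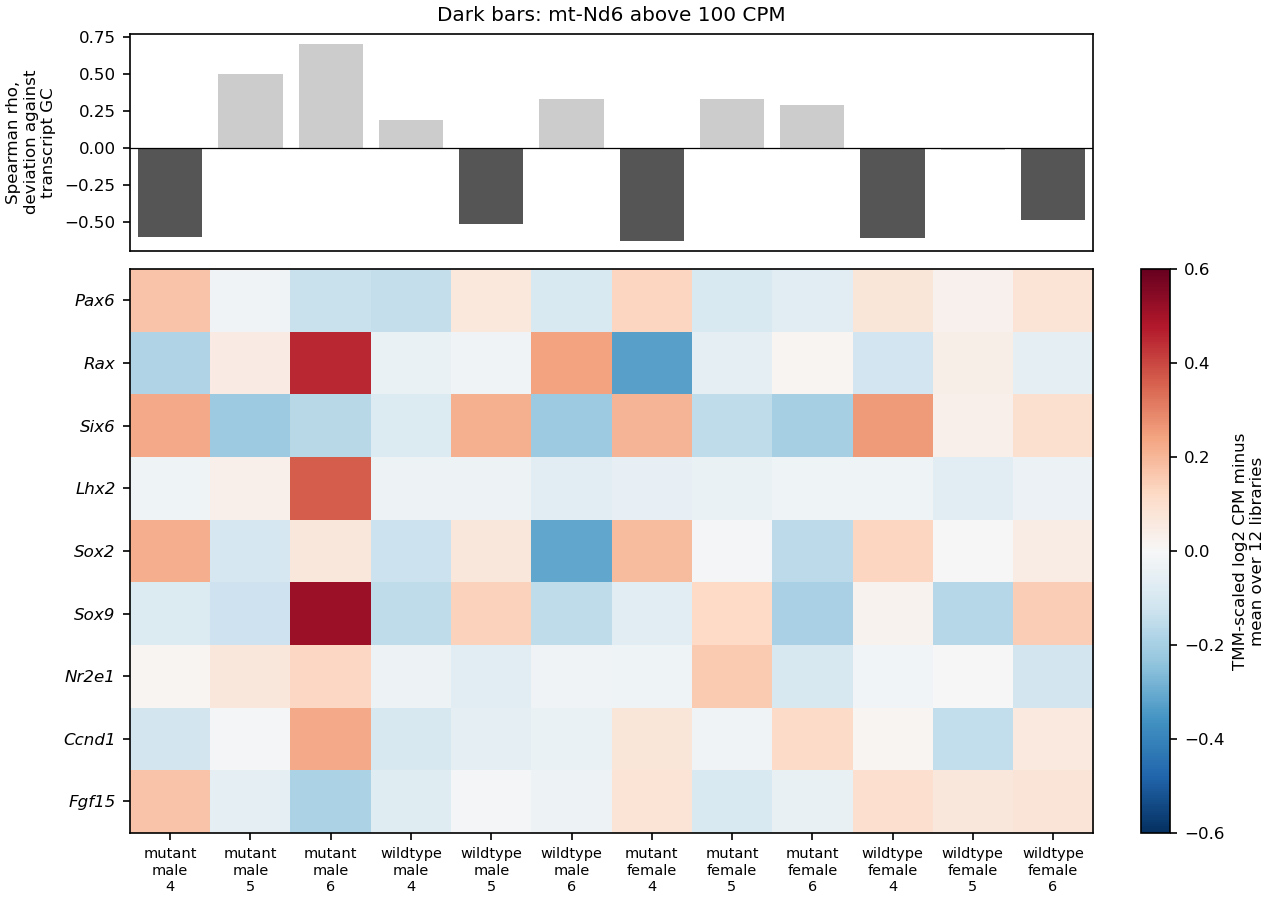
Upper panel, Spearman rho over 13641 genes between transcript GC content and the deviation of each library from the mean, with dark bars for mt-Nd6 above 100 CPM. Lower panel, deviation of each member from its mean over 12 libraries (TMM-scaled log2 CPM, red above and blue below). Six6 is red in the 5 dark libraries, and Rax, Lhx2, Sox9 and Ccnd1 are reddest in mutant male 6.

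Some members varied together from library to library. Of 36 pairs, 7 had an adjusted p under 0.05 by Pearson's r over 12 libraries (permutation test, 100000 resamples), 5 positive and 2 negative. By Spearman's rho 5 of the 36 did, among them Rax with Six6 (rho = -0.75), which did not pass by r. Pax6 with Six6, Rax with Pax6 and Rax with Fgf15 passed by r but not by rho. Pax6 and Fgf15 were the closest pair, with r = 0.90 and rho = 0.90 (permutation p = 0.00014 and 0.00024, adjusted 0.00504 and 0.00864), and r = 0.87 without the 2 libraries farthest from the Pax6 median. Within the 7 libraries of the low mt-Nd6 set r was 0.77 (exact permutation p = 0.0429, adjusted 0.26), and after GC correction over 12 libraries it was 0.88. Such a likeness is not particular to the members. Of 13692 genes outside the members, 153 had r over 0.9 with Pax6, 174 with Fgf15 and 112 with Rax over the 12 libraries. The share of called pairs among all genes was not computed, so the 7 of 36 have no background to be read against. The high set held 5 libraries, fewer than the 6 from which a correlation is reported here, so none is given for it.

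The other positive pairs over 12 libraries were Pax6 with Six6 (r = 0.86) and Sox2 (r = 0.73), and Six6 with Sox2 (r = 0.80) and Fgf15 (r = 0.79). The negative pairs were Rax with Pax6 (r = -0.70) and Rax with Fgf15 (r = -0.72). Within the low set 0 of 36 pairs passed, and Pax6 with Six6 had r = 0.35 there, Pax6 with Sox2 0.08, Six6 with Sox2 0.43, Six6 with Fgf15 0.53, Rax with Pax6 -0.31 and Rax with Fgf15 -0.52. After GC correction 5 pairs passed, of which 3 were among the 7: Pax6 with Fgf15, Pax6 with Sox2 (r = 0.79) and Six6 with Sox2 (r = 0.75). Six6 with Fgf15 then had r = 0.14. The neighbours Fgf15 and Ccnd1 had r = -0.47 over 12 libraries (adjusted permutation p = 0.25) and -0.00469 without the 2 libraries farthest from the Ccnd1 median. Within the low set their r was -0.78 (exact permutation p = 0.0433, adjusted 0.26).

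**Figure D5:**
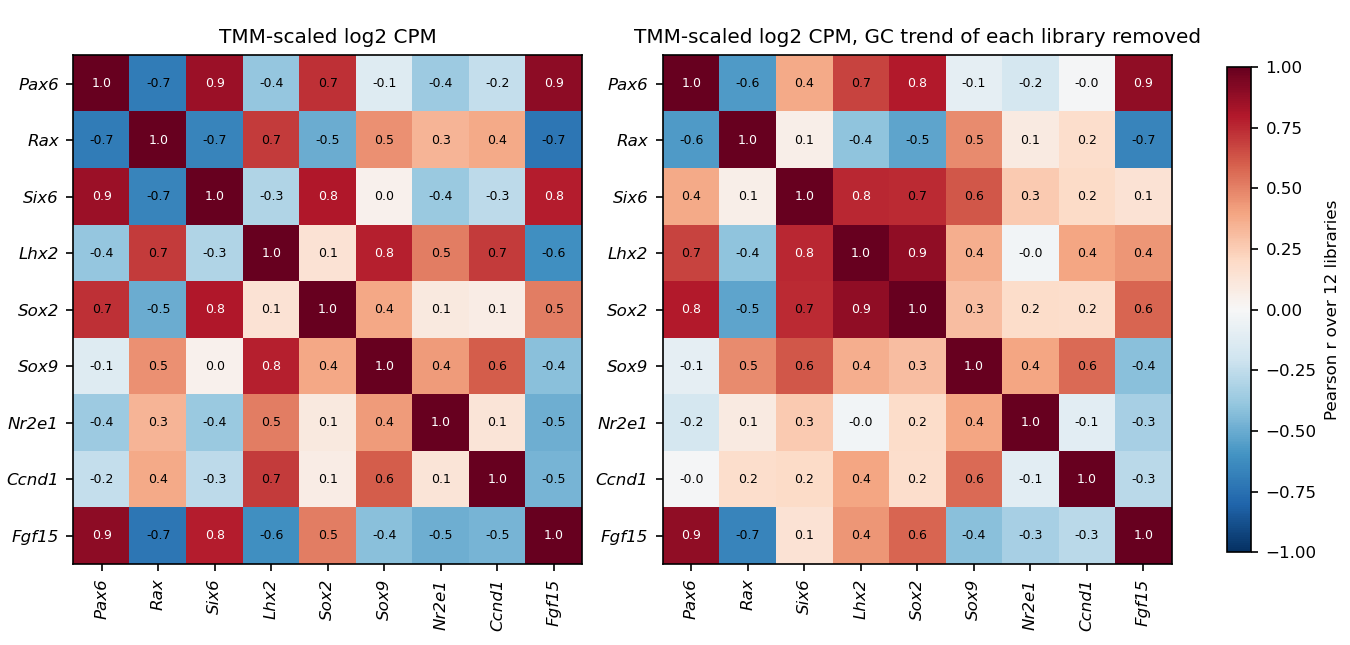
Pearson r between members over 12 libraries (red positive, blue negative, both axes the 9 members), for TMM-scaled log2 CPM on the left and after removal of the GC trend of each library on the right. Pax6 with Fgf15 is 0.90 on the left and 0.88 on the right, and Six6 with Fgf15 is 0.79 on the left and 0.14 on the right.

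The genes most like each member over the 12 libraries are given as a description, since all share the same libraries and their differences in mt-Nd6 and GC trend. For Six6 they were Zfp958 (r = 0.98), Ppp2r5e (r = 0.98) and Cmpk1 (r = 0.97), and 451 of 13692 genes compared had r over 0.9 with Six6. For Pax6 they were Stxbp3a (r = 0.97), Ier3ip1 (r = 0.97) and Arl6ip6 (r = 0.96), for Fgf15 Mat2b (r = 0.98), Pi4k2b (r = 0.97) and Ska3 (r = 0.96), and for Sox2 Lpgat1 (r = 0.95), Mapk1ip1l (r = 0.94) and Wipf1 (r = 0.93). For Rax they were Fam57b (r = 0.98), Irf2bp2 (r = 0.98) and Fam134a (r = 0.97), and for Lhx2 Ckap4, Cxxc5 and Brd3 (r = 0.97 each). Sox9 was closest to Ado (r = 0.98), Lamp1 (r = 0.95) and Zic2 (r = 0.93), and Nr2e1 to Rps6ka1 (r = 0.94), Elp5 (r = 0.91) and Ezr (r = 0.91). Ccnd1 had the loosest likenesses, with Gsg2 at r = 0.88 and Chaf1a and Tldc1 at r = 0.87, and 0 genes over 0.9. After GC correction some of these likenesses were much lower: Arl6ip6 with Pax6 had r = -0.35, Fam134a with Rax 0.15, Ska3 with Fgf15 0.29 and Brd3 with Lhx2 0.44, while Ier3ip1 with Pax6 had 0.93, Irf2bp2 with Rax 0.98 and Ado with Sox9 0.98.

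Genes that work with the members gave the same count of calls. Of 18 further progenitor genes, 0 passed over both sexes, 11 had estimates above 0 and 7 below, with a median log2 fold change of 0.05. The 3 with the highest level were Dkk3, a secreted glycoprotein (log2 fold change -0.01), Sfrp2, a secreted Wnt modulator (0.14), and Vim, the intermediate filament of progenitors (0.07). Of 10 tested paralogs and cofactors of the homeobox and nuclear receptor members 0 passed, 7 were above 0, and the median was 0.11. Their highest were Six3, which was also among the 18 progenitor genes (0.16), Ldb1, the LIM-domain cofactor that Lhx2 binds (0.07), and Nr2f1 (0.12). Of 9 tested Sox genes 0 passed, 6 were above 0 and the median was 0.06, with Sox11 at 0.00735, Sox4 at 0.12 and Sox12 at 0.13.

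Around Ccnd1, 0 of 20 genes of the D-cyclin pathway and the cell cycle passed, 12 were above 0, and the median was 0.04. Cdk4, the kinase that D cyclins activate, had a log2 fold change of 0.06, Top2a, a topoisomerase of dividing cells, -0.13, and Mki67, a marker of cycling cells, -0.02. The 1 gene of this list with an unadjusted p under 0.05 was the cyclin-dependent kinase inhibitor gene Cdkn1c, at 0.21. Around Fgf15, 0 of 16 tested genes of FGF and ERK signalling passed, 10 were above 0, and the median was 0.03. Etv5, an ETS factor induced by FGF, stood at 0.01, the ligand gene Fgf3 at -0.00602 and the receptor gene Fgfr1 at 0.12. An unadjusted p under 0.05 was found for 3 of these genes, the ligand gene Fgf2 (log2 fold change 0.79) and the receptor genes Fgfr3 (0.54) and Fgfr4 (-0.74). Fgf2 and Fgfr4 had low counts, with means of 0.58 and 1.24 CPM in mutants against 0.33 and 2.06 CPM in wildtypes. Fgfr3 had 10.5 CPM in mutants against 7.22 CPM in wildtypes. Of 12 hedgehog genes, the pathway through which ganglion cells act on progenitors, 0 passed and 10 were above 0, with a median of 0.14 and 2 genes at an unadjusted p under 0.05, the ligand gene Shh (log2 fold change 0.56) and its receptor gene Ptch1 (0.23). Smo had a log2 fold change of 0.13, Gli1 0.16 and the co-receptor gene Cdon -0.01. The 6 genes with an unadjusted p under 0.05 in these 3 lists are named after their values were seen, all had an adjusted p of 0.918 (edgeR), and they stand beside the 451 of 15467 genes tested.

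The cells that progenitors give rise to, or that could be in a dissected retina, were read from marker lists, of which no gene passed over both sexes. All 8 ganglion cell markers had estimates below 0 with a median log2 fold change of -0.05, beside -0.00806 over all genes tested. Within the high mt-Nd6 set 4 of these 8 were above 0, within the low set 3, in males 1 and in females 0. The markers share the same libraries, so their common sign is not 8 separate observations. Of 7 amacrine markers 5 were below 0, with a median of -0.12. Of 10 markers of neurogenic precursors 7 were above 0 (median 0.01), and of 9 late progenitor and glial genes 4 were (median -0.04). Of 5 horizontal cell markers 3 were above 0 (median 0.02), of 6 photoreceptor precursor markers 2 (median -0.08), and of 8 ciliary margin and stalk markers 6 (median 0.11). All 8 tested lens markers were above 0 with a median of 1.51, and the lens gene Cryaa reached 907.2 CPM in mutant female 5. The direction of the lens markers was not the same in both mt-Nd6 sets: within the high set all 8 tested were below 0 (median -1.34), and within the low set all 9 tested were above 0 (median 3.30). Without the 3 libraries highest in Cryaa the members' log2 fold changes were -0.04 to 0.14, and 0 were called. For astrocytes, blood, vessels and mesenchyme, microglia and pigment epithelium the medians were 0.13, -0.13, -0.02, 0.19 and -0.00781.

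The deposited comparisons of the authors gave the members similar estimates. For both sexes, the authors' deposited table gave log2 fold changes, mutant over wildtype, from -0.07 for Six6 to 0.09 for Ccnd1, with adjusted p-values of 0.951 to 0.9995. The authors' deposited table for males gave -0.02 for Six6 to 0.13 for Sox2, and their deposited table for females -0.12 for Six6 to 0.08 for Ccnd1.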

How the data were processed

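RNA was sequenced from 12 libraries of pooled retinas. The submitters' processing notes name CASAVA, STAR 2.5, HTSeq 0.6.1 and DESeq2, and mm10 as the build. Neither an annotation release nor a strand setting of the counting is given in these sources. The authors deposited read counts per gene and library, not normalized, in 3 tables (both sexes, males, females) whose member counts were identical. Per the file headers they also deposited a normalised signal, FPKM (scaled by gene length and library total), log2 fold changes, p-values and adjusted p-values.

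Counts of all 12 libraries in the table of both sexes were used for every fit, males and females alone included, and were tested with edgeR 4.0.16 (TMM, filterByExpr, two-sided quasi-likelihood test, Benjamini-Hochberg adjustment over all genes, threshold 0.05). Sex was a term in the fit of both sexes. SE was derived from the F statistic (absolute log2 fold change divided by its square root). CPM are counts over the library total without TMM scaling, and correlations used TMM-scaled log2 CPM with a prior count of 2. Transcript GC content came from GENCODE M21 and matched 99.0% of listed genes. Alternatives were RLE size factors, no filter, DESeq2 1.42.0, limma voom 3.58.1, the library number as a block, the mt-Nd6 set, subsets of libraries and a GC correction.

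The members and lists were chosen with earlier results of these data known. All members are named. Where the text names genes of a pathway list, these are genes past the threshold or otherwise the 3 with the highest mean CPM, and marker lists are given by counts and medians. Genes of a list named for an unadjusted p were chosen after their values were seen. For likeness the 3 highest r per member are named. Same-numbered libraries deviated together in females (r of 0.30, 0.35 and 0.21), while the male values were mixed (-0.31, 0.03 and 0.44). The numbers were read as pairs in females after these values were seen, a reading of the data and not of the labels. Libraries of unlike number were not compared in this way, so the values do not show that same-numbered libraries are more alike. Mutant and wildtype female 4 were both in the high mt-Nd6 set, females 5 both in the low set and females 6 in unlike sets. The part of the set in these values was not tested. The smallest correlation of log2 CPM between any 2 libraries was 0.950 and no libraries were identical.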

Additional observations from a re-analysis of the deposited data

Results flagged for a closer look

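Of 18 groups of 6 libraries tested (9 members in each genotype), 1 held a library far from the others: Lhx2 in mutant male 6, at 366 CPM, where the gap to the next library took up 0.705 of the range of the 6 mutant libraries. Chance alone flags about 1 in 20 such groups. The same library was also the highest of all 12 for Sox9, Rax and Ccnd1 and the lowest for Fgf15, had the smallest total count, and had the highest rho between GC content and deviation.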

How the results depend on the processing

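No member was called in any comparison under any alternative run, so what follows concerns counts over all genes or the signs of uncalled estimates, and the cause was not tested. Over both sexes 15 genes were called by DESeq2, 9 with a term for the mt-Nd6 set, 9 with GC-corrected offsets (chosen after seeing the data), 0 without the 3 libraries highest in Cryaa and 1 to 5 with any 1 library left out, against 4. DESeq2 called 6 genes in males, 10 in females and 2 between wildtype females and males. Leaving out 1 library gave 0 to 2 in females and 1 to 2 between the wildtypes. With the replicate number as a block 2 genes were called over both sexes and 2 in females, and the block changed no call of a member. Residuals from the group means gave 12 correlated pairs against 7.

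Signs turned for these log2 values. Over both sexes Pax6 was 0.0016 (RLE), 0.0015 (DESeq2), 0.020 (mt-Nd6 term), 0.00089 (GC correction), 0.072 (high set) and 0.043 (without the 3 Cryaa libraries). Within the high set Lhx2 was -0.012, Sox9 -0.19, Six6 0.017, Fgf15 0.067 and Ccnd1 -0.0039, and within the low set Rax was 0.069. Six6 was 0.017 without the 3 Cryaa libraries and, in males, 0.083 with GC correction. In females Sox2 was 0.012 with the mt-Nd6 term and Lhx2 -0.015 with GC correction. Between the wildtypes Lhx2 was 0.017 and Nr2e1 0.022 with that term.

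Leaving out 1 library turned further signs. Over both sexes the ranges were -0.054 to 0.11 (Sox9), -0.10 to 0.048 (Rax) and -0.045 to 0.018 (Pax6). In males they were -0.054 to 0.29 (Sox9), -0.17 to 0.10 (Six6), -0.13 to 0.20 (Rax), -0.020 to 0.13 (Pax6) and -0.086 to 0.094 (Fgf15). In females they were -0.14 to 0.032 (Sox9), -0.020 to 0.11 (Nr2e1), -0.14 to 0.030 (Rax) and -0.13 to 0.038 (Sox2). The interaction ran over -0.33 to 0.021 (Sox9), -0.12 to 0.018 (Nr2e1), -0.26 to 0.0044 (Six6), -0.27 to 0.073 (Rax) and -0.10 to 0.089 (Ccnd1). Between the wildtypes the ranges were -0.013 to 0.0035 (Lhx2), -0.021 to 0.15 (Sox9), -0.032 to 0.032 (Nr2e1) and -0.0021 to 0.090 (Ccnd1), and the log2 FPKM difference of Six6 over Nr2e1 had a range of -0.014 to 0.080.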
